A study of Mus musculus with 6 samples.

Results

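The p53 targets and growth arrest genes examined here were the 10 genes *Trp53*, *Mdm2*, *Cdkn1a*, *Ccng1*, *Bax*, *Gadd45a*, *Gadd45b*, *Gadd45g*, *Trp53inp1* and *Sesn1*, taken by symbol from the 52550 mouse genes of the deposited table. All 10 had enough counts to be kept among the 13396 genes on which the genotypes were compared. In the skeletal muscle of *FLExDUX4* mice, *Gadd45g* was 2.35-fold lower than in wild-type littermates. The other 9 genes lay within 1.5-fold of wild-type, except *Trp53* itself, which was 1.75-fold higher on few counts and less than 1.5-fold higher when scaled by spike-in RNAs. *Cdkn1a* and *Ccng1*, which encode the arrest protein p21 and cyclin G1, differed by less than their counting error under scaling over genes. Both were lower in *FLExDUX4* mice when scaled by spike-in RNAs, but so were most genes, with a median log2 ratio of -0.28.

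The *FLExDUX4* mouse carries human *DUX4*, the gene misexpressed in facioscapulohumeral muscular dystrophy, in the *Rosa26* locus. The transgene is inverted between lox sites, and these mice were hemizygous for it and received no Cre, so that any DUX4 comes from leaky expression. Which cells express it was not measured here. The controls were wild-type littermates (WT). Both groups were male, with 3 mice in each, and the labels give quadriceps muscle at 13 weeks of age, whereas the study's methods give a forelimb muscle, the triceps, from younger mice. Of the limb position genes, the hindlimb gene *Pitx1* had 0 counts in the *FLExDUX4* total and 1 in the WT total, the hindlimb gene *Tbx4* had 10 and 10, and the forelimb gene *Tbx5* had 14 and 34. The labelled muscle was therefore not borne out by *Pitx1*, and these counts are too few to name another.

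RNA was measured with QuantSeq, which reads the end of each polyadenylated transcript, so that a transcript gives about the same number of reads whatever its length and levels can be set beside each other between genes. The values are counts pooled over a genotype, 13110125 on genes for *FLExDUX4* mice and 18367364 for WT. Columns of single mice could not be matched to a genotype by any label and were left unused, so no replicate check or test across mice was made, no p-value is given, and a single mouse could decide any ratio reported here. Levels are in CPM, the counts of a gene scaled to a common library size, after TMM normalization over genes. Differences are log2 ratios of *FLExDUX4* over WT, each with a 95% Clopper-Pearson interval that covers counting error only. In bulk muscle, fewer cells of a type cannot be told apart from less RNA in each cell.

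The transcription factor p53 is held at a low level in unstressed cells by the ubiquitin ligase MDM2, which p53 itself induces, so that the pair forms a feedback loop. When DNA damage or other stress stabilises p53, it switches on genes that stop the cell cycle, repair DNA, limit metabolism or trigger apoptosis. In muscle, several of these genes also answer to signals other than p53. *Cdkn1a* is used when myoblasts leave the cell cycle, and GADD45 proteins, small stress sensors that activate MAP kinase signalling, respond to denervation, exercise, fasting and cytokines.

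Since p53 acts by binding DNA near its targets, the start regions of the genes are given first. RefSeq start windows of 300 bases on GRCm38.p6, from 250 before to 50 after the start site, matched 9 of the 10 genes in 11 windows, because *Cdkn1a* and *Sesn1* each had more than one. *Trp53inp1* had no entry. The windows were searched on both strands for the p53 half-site, a run of purines, then C, a pair of A or T, then G and a run of pyrimidines, which reads as the same motif on either strand. At least 1 half-site lay in 7 of the 11 windows and in 7 of the 9 genes, against 8.36% of all 32851 windows and 6.86% of the 12353 windows of genes kept. Only *Gadd45b* and *Gadd45g* among the 9 had none. The windows of the 3 *Gadd45* genes are shown because the family splits in its counts, and the upstream window of *Cdkn1a* because it was the only window of the 9 genes with a pair of half-sites, 12 bases apart. Such a pair, with up to 13 bases between, occurs in 0.0731% of all windows. Capitals mark the p53 half-site, the E-box CACGTG and the TATA box TATAAA, none of which overlap here, each on the strand of the gene.
*Gadd45g*, chr13:51846425-51846724, plus strand: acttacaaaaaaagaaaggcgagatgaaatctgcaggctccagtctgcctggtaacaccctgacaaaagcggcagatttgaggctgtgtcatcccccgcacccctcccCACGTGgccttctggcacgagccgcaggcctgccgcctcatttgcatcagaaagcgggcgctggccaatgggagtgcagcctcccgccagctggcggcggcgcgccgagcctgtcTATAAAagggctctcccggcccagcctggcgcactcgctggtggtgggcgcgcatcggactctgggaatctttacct
*Gadd45b*, chr10:80929841-80930140, plus strand: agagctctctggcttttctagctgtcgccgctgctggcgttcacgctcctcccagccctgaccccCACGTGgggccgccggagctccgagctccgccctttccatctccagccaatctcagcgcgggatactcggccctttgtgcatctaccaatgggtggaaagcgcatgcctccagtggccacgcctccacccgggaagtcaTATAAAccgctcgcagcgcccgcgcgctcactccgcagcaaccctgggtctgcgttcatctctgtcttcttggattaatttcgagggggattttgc
*Gadd45a*, chr6:67037358-67037657, minus strand: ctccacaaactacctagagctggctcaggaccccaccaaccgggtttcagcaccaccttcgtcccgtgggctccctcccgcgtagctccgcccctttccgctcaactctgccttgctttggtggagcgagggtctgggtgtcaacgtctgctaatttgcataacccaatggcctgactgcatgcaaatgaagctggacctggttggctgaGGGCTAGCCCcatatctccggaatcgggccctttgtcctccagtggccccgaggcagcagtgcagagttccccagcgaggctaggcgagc
*Cdkn1a*, chr17:29090729-29091028, plus strand: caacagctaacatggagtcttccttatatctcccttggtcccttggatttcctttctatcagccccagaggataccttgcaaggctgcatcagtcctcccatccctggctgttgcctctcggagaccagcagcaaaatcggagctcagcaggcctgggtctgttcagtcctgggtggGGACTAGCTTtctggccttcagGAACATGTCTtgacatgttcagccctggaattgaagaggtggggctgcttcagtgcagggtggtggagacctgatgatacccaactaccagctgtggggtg
The E-box begins 142 bases before the start of *Gadd45g* and 185 before that of *Gadd45b*, and also occurs in the windows of *Bax* and *Trp53*. It was found in 4 of the 9 genes, in 7.15% of all windows and in 9.84% of those of the genes kept. TATAAA begins 27 bases before the *Gadd45g* start and 46 before the *Gadd45b* start, and was found in 3 of the 9 genes, the third being *Trp53*, where it lies on the other strand, against 13.6% of all windows and 7.49% of those of the genes kept. *Gadd45g* and *Gadd45b* thus share an E-box and a TATA box and lack a half-site, while *Gadd45a* has a half-site beginning at -40 and neither of the others. This grouping is not that of the counts, in which *Gadd45g* stands apart from both *Gadd45b* and *Gadd45a*. A match describes these letters in the window and is not a measured binding site.

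The half-sites of the remaining genes are listed as the RefSeq windows hold them, on the strand of the gene, with the position of the first base from the start site, and with all of the half-site in capitals, as they vary between the genes.
*Mdm2*, -186: GAACTTGCCT
*Ccng1*, -185: GGGCAAGCCT
*Trp53*, -75: GGACTTGCCC
*Bax*, -201: AGGCAAGCTT
*Sesn1*, -173, in the window chr10:41887189-41887488: AAGCTTGTTT
Of the other motifs searched, CCAAT (37.4% of all windows and 37.0% of those of the genes kept) was found in 7 of the 9 genes, the GC box GGGCGG (35.7% and 61.8%) in 6, which is close to the share among the genes kept, and the FoxO motif GTAAACA (3.65% and 2.67%) in *Sesn1* and *Mdm2*. The cyclic AMP response element TGACGTCA (1.79%), the AP-1 motif TGAGTCA (5.2%) and the MEF2 motif (0.274%) were found in none of the 9.

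The 10 genes covered a wide range of levels. *Ccng1* stood far above the rest in both genotypes and alone held 67.1% of the counts of the 10 genes in *FLExDUX4* mice (interval 66.0% to 68.1%) and 61.2% in WT (60.3% to 62.1%). *Bax* was the lowest in both. In WT the order was *Ccng1*, *Gadd45g*, *Cdkn1a*, *Mdm2*, *Gadd45b*, *Sesn1*, *Trp53inp1*, *Gadd45a*, *Trp53* and *Bax*. Counting intervals met between *Cdkn1a* and *Mdm2*, along *Gadd45b*, *Sesn1* and *Trp53inp1*, and between *Trp53* and *Bax*, so these neighbours cannot be ordered. In *FLExDUX4* mice, *Gadd45g* lay next to *Mdm2* and *Cdkn1a* and its interval met that of *Mdm2*, and *Gadd45a* could not be ordered from *Trp53*.

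**Figure D1:**
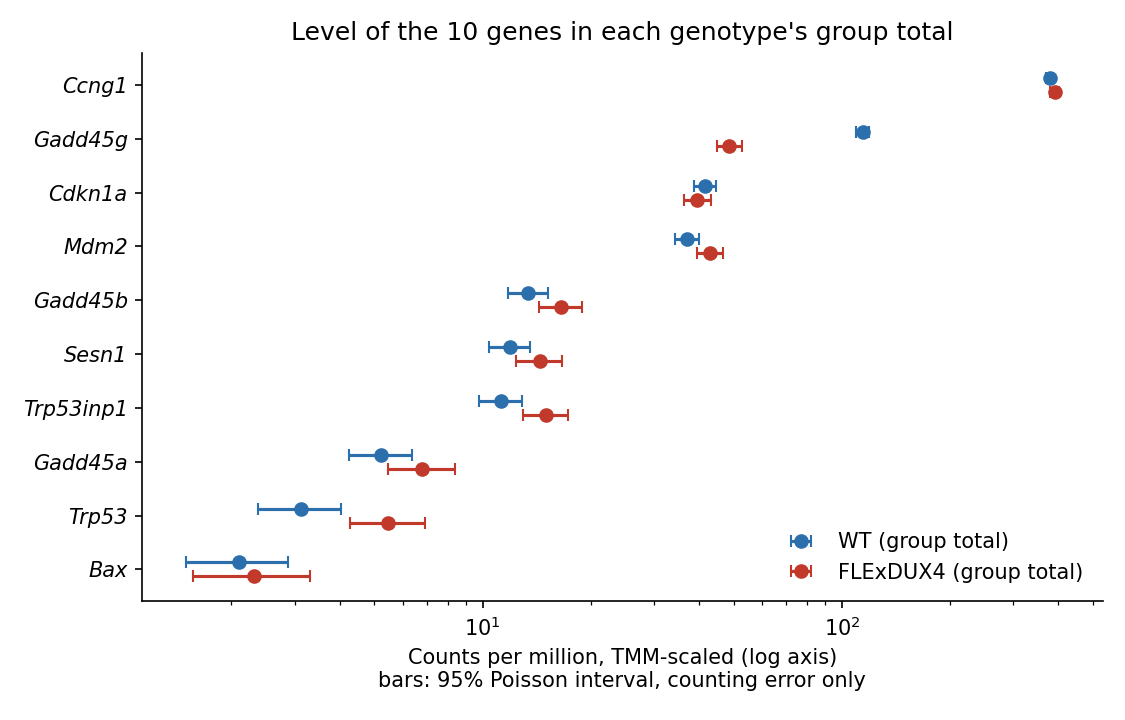
Level of each of the 10 genes in CPM (log axis) in the pooled counts of *FLExDUX4* mice (red) and WT (blue), with 95% Poisson intervals that cover counting error only. *Gadd45g* shows the widest gap, 48.6 CPM in *FLExDUX4* mice against 114.2 CPM in WT, and the intervals of *Trp53* (5.47 CPM and 3.13 CPM) and *Trp53inp1* (15.0 CPM and 11.3 CPM) also do not meet.

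*Trp53*, which encodes p53, lies at chr11:69580359-69591873 on GRCm38. It had 71 counts in *FLExDUX4* mice and 58 in WT, or 5.47 CPM and 3.13 CPM. The log2 ratio was 0.81 (0.29 to 1.33), and this was the one gene of the 10 at least 1.5-fold higher. Over all genes kept, 13.2% were at least 1.5-fold higher, so 1 of 10 is close to the background. Of the 8617 genes with at least as many counts, 2.03% had a ratio as high or higher. Scaled by the spike-ins, the ratio was 0.53 (0.01 to 1.06) and below 1.5-fold. The pseudogene *Trp53-ps* had no counts in either genotype.

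*Mdm2* (chr10:117688875-117710758, minus strand) had 559 counts in *FLExDUX4* mice and 689 in WT, at 43.1 CPM and 37.1 CPM. Its log2 ratio was 0.21 (0.05 to 0.38). Under spike-in scaling it turned to -0.06 (-0.22 to 0.10), so its direction is not settled. Free of any scaling, there were 7.87 *Mdm2* counts for each *Trp53* count in *FLExDUX4* mice and 11.9 in WT.

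*Cdkn1a* (chr17:29090976-29100727, plus strand) encodes p21, an inhibitor of cyclin-dependent kinases and the best known arrest target of p53. It had 514 and 772 counts, 39.6 CPM in *FLExDUX4* mice and 41.6 CPM in WT, with a log2 ratio of -0.07 (-0.23 to 0.09). Under TMM the interval ran from 0.850-fold to 1.07-fold, and a larger difference is not shown under that scaling. The share of *Cdkn1a* in the counts of the 10 genes was 6.80% and 6.72%. Under spike-in scaling *Cdkn1a* was lower in *FLExDUX4* mice, at -0.35 (-0.51 to -0.18), beside a median of -0.28 for all genes. *Cdkn1a* overlaps a transcript annotated on the opposite strand, AC167363.2, and the strand setting of the counting is not given in the sources used here.

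*Ccng1* (chr11:40748552-40755311, minus strand) encodes cyclin G1, which recruits a phosphatase to MDM2. It had 5070 and 7033 counts, 390.8 CPM in *FLExDUX4* mice and 379.0 CPM in WT, and its many counts gave the narrowest interval of the 10. The log2 ratio was 0.04 (-0.01 to 0.10) under TMM and -0.23 (-0.28 to -0.18) under spike-in scaling. The ratio of *Cdkn1a* to *Ccng1* counts, which no scaling moves, was 0.101 in *FLExDUX4* mice and 0.110 in WT. *Cdkn1a* and *Ccng1* therefore stood in nearly the same proportion to each other in both genotypes. Pairs with *Mdm2* moved more. *Cdkn1a* to *Mdm2* was 0.919 in *FLExDUX4* mice and 1.12 in WT, and *Mdm2* to *Ccng1* was 0.110 and 0.0980.

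*Bax* (chr7:45461697-45466898, minus strand), a pore-forming member of the BCL2 family that opens mitochondria during apoptosis, had 30 counts in *FLExDUX4* mice and 39 in WT, or 2.31 CPM and 2.10 CPM. Its log2 ratio of 0.14 had an interval from -0.60 to 0.86, so that a 1.5-fold difference in either direction could not have been seen at this depth.

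*Trp53inp1* (chr4:11156431-11174379, plus strand) encodes a nuclear cofactor that aids p53 and takes part in autophagy. It had 195 and 209 counts, 15.0 CPM in *FLExDUX4* mice and 11.3 CPM in WT. The log2 ratio was 0.42 (0.13 to 0.70), the second highest of the 10, and 0.14 (-0.15 to 0.43) under spike-in scaling. *Sesn1* (chr10:41809935-41908424, plus strand), a sestrin that restrains mTORC1 and is also a FoxO target in muscle, had 187 and 221 counts, at 14.4 CPM and 11.9 CPM. Its log2 ratio was 0.28 (-0.01 to 0.56), and 4.2e-06 (-0.29 to 0.29), in effect no difference, under spike-in scaling. A same-strand transcript inside *Sesn1*, 9930024M15Rik, had 61 counts in *FLExDUX4* mice and 81 in WT, and reads there may have been counted for either gene.

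The *Gadd45* genes encode growth arrest and DNA damage-inducible proteins of like size that bind p21, PCNA and MAP kinase kinase kinases. *Gadd45g* (chr13:51846678-51848468, plus strand) had 631 counts in *FLExDUX4* mice and 2120 in WT, although the WT total over genes was only 1.40 times as deep. This came to 48.6 CPM and 114.2 CPM, and a log2 ratio of -1.23 (-1.36 to -1.10). It was the one gene of the 10 at least 1.5-fold lower, against 13.5% of all genes kept. Among the 983 genes with at least as many counts as *Gadd45g*, no other had a ratio as low. Under spike-in scaling the ratio was -1.51 (-1.64 to -1.38).

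*Gadd45b* (chr10:80930073-80932204, plus strand) had 214 and 249 counts, 16.5 CPM in *FLExDUX4* mice and 13.4 CPM in WT, and a log2 ratio of 0.30 (0.03 to 0.57). *Gadd45a* (chr6:67035096-67037457, minus strand), the family member most often described as a p53 target, had 88 and 97 counts, 6.78 CPM and 5.23 CPM, and a log2 ratio of 0.38 (-0.06 to 0.81). Both ratios lay above 0 while that of *Gadd45g* lay below, although the interval of *Gadd45a* held 0. With spike-in scaling they came to 0.02 and 0.10, with intervals that held 0. The antisense transcript E230016M11Rik overlaps *Gadd45a* and had 1 count in *FLExDUX4* mice and 6 in WT.

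Within the family the comparison needs no scaling. *Gadd45g* made up 67.6% of the 933 *Gadd45* counts in *FLExDUX4* mice (64.5% to 70.6%) and 86.0% of the 2466 in WT (84.5% to 87.3%). *Gadd45b* made up 22.9% and 10.1%, and *Gadd45a* 9.43% and 3.93%. The ratio of *Gadd45b* to *Gadd45a* was nearly the same, 2.43 in *FLExDUX4* mice and 2.57 in WT, whereas *Gadd45g* to *Gadd45b* was 2.95 and 8.51. Against *Ccng1*, *Gadd45g* was at 0.124 in *FLExDUX4* mice and 0.301 in WT.

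**Figure D2:**
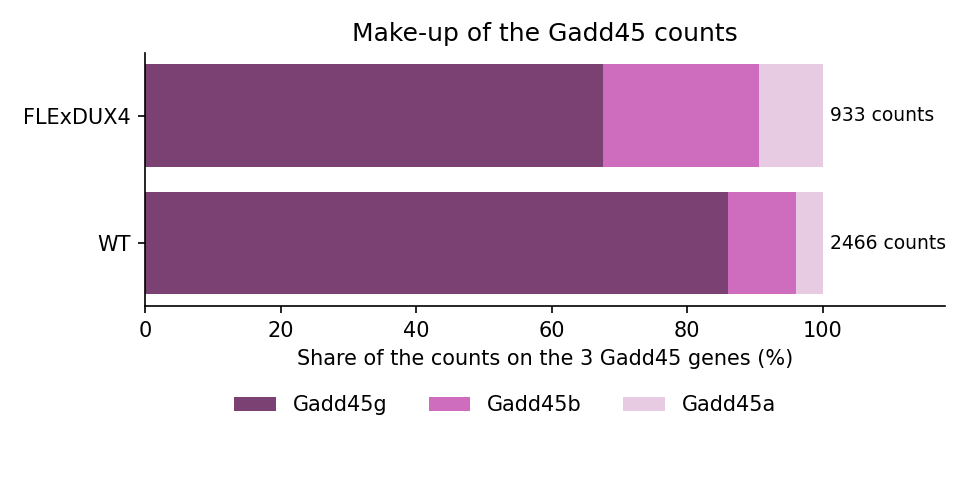
Share of each *Gadd45* gene in the counts of the family, in percent, for the pooled counts of *FLExDUX4* mice (933 counts) and WT (2466 counts). *Gadd45g* takes 67.6% in *FLExDUX4* mice and 86.0% in WT.

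Over the 10 genes, 8 ratios were above 0 and the median was 0.25, beside -0.001 for all genes kept. By counting error, the intervals of *Trp53*, *Mdm2*, *Gadd45b* and *Trp53inp1* lay above 0, which is 4 of 10 against 20.5% of all genes, and that of *Gadd45g* lay below 0, 1 of 10 against 20.6%. These counts depended on the scaling. Spike-in RNAs took 1.65% of the counts of genes and spike-ins in *FLExDUX4* mice and 1.40% in WT, and scaling by them lowered every ratio by 0.28. Of 45 spike-ins with at least 60 counts, 39 had a ratio above 0, with a median of 0.28. The median of the 10 genes was then -0.03, beside -0.28 for all genes. Counting *Sesn1* at 4.2e-06, 5 ratios were above 0, where 3376 of the 13396 genes kept were. *Trp53* alone then had an interval above 0, where 1017 of the genes kept did. *Gadd45g*, *Cdkn1a* and *Ccng1* had intervals below 0, where 6308 of the genes kept did. Other scalings moved ratios by at most 0.03, which under plain gene totals left 3 intervals above 0, without *Gadd45b*.

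**Figure D3:**
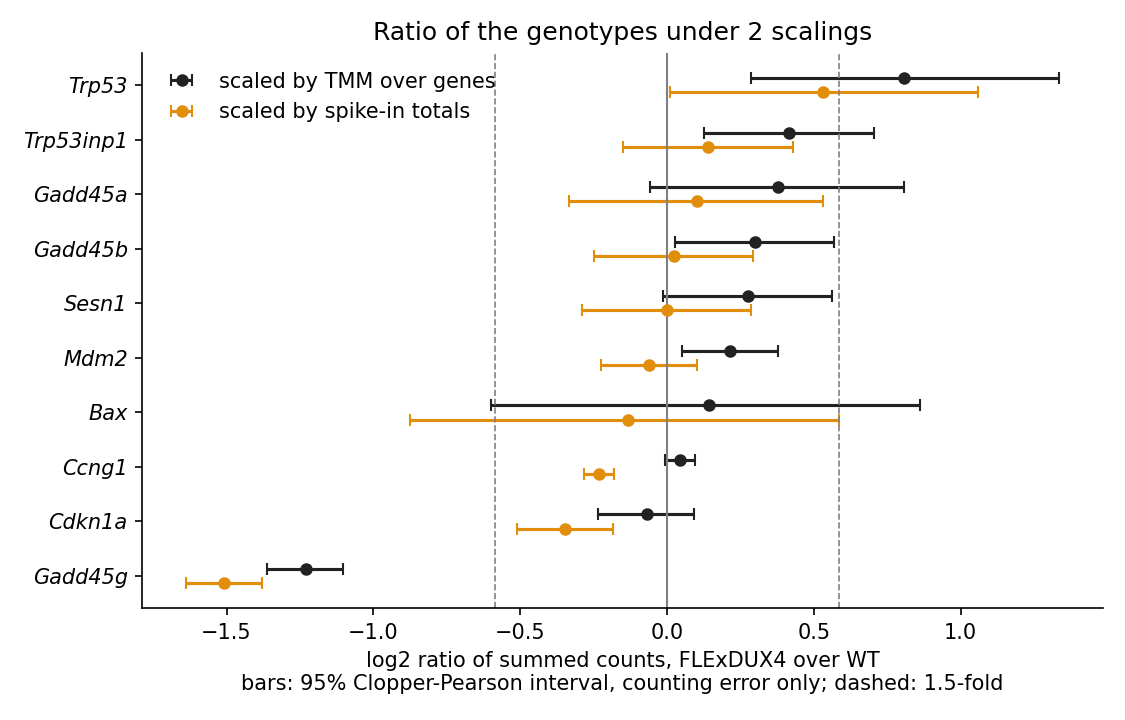
Log2 ratio of pooled counts, *FLExDUX4* over WT, for the 10 genes under TMM scaling (black) and spike-in scaling (orange), with 95% Clopper-Pearson intervals for counting error and dashed lines at 1.5-fold. *Gadd45g* lies below the lower line under both scalings, at -1.23 and -1.51, and *Trp53* passes the upper line under TMM only.

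**Figure D4:**
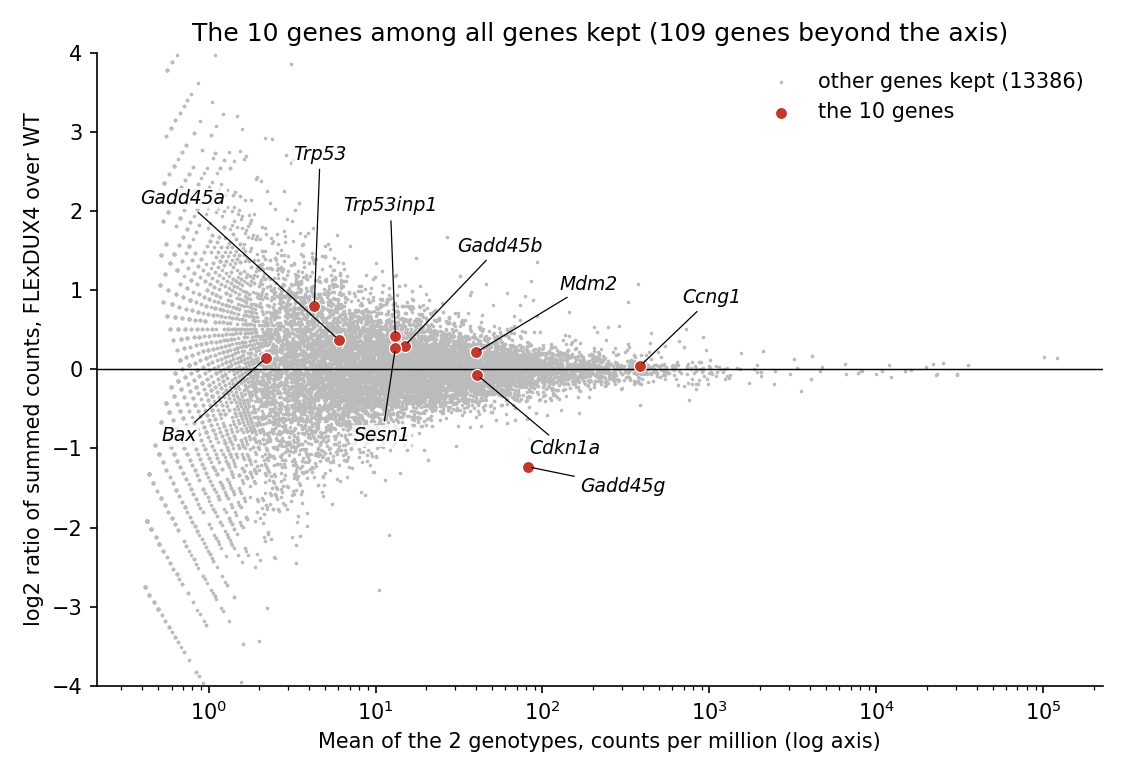
Log2 ratio, *FLExDUX4* over WT, against mean level in CPM (log axis) for the 13396 genes kept, with the 10 genes in red and 109 genes beyond the axis. The scatter widens at low level, where *Trp53*, *Gadd45a* and *Bax* lie within it, and *Gadd45g* stands below the genes of its level.

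Other genes of the pathway lay on both sides of WT. Of 14 regulators of p53, 11 were kept, with a median log2 ratio of -0.07. *Trp63*, a p53 homolog, was at least 1.5-fold higher (133 counts in *FLExDUX4* mice and 120 in WT, log2 ratio 0.66, 0.30 to 1.03), though not under spike-in scaling, at 0.39. Of the damage kinases, *Atr* (64 and 146 counts, -0.67, -1.12 to -0.24) and *Chek2* (20 and 44 counts, -0.60, -1.46 to 0.17) were at least 1.5-fold lower. *Atm* (141 and 205 counts, -0.02, -0.34 to 0.29) was not. Thus 1 of the 11 was at least 1.5-fold higher and 2 lower, where 13.2% and 13.5% of all genes were. The regulators with the most counts were within 1.5-fold of WT, with *Usp7*, a deubiquitinase of p53 and MDM2, at -0.07 the acetyltransferase gene *Ep300* at 0.30 and the p53 kinase gene *Hipk2* at 0.09. *Mdm4*, which encodes the partner of MDM2, was at -0.12 (-0.32 to 0.07). *Cdkn2a*, which encodes the MDM2 inhibitor ARF, had no counts in either genotype.

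Of 15 further p53 targets in arrest and DNA repair, 12 were kept, with a median of -0.20. None was at least 1.5-fold higher and 3 were at least 1.5-fold lower, where 13.2% and 13.5% of all genes were, each on few counts, *Trp53i11* (7 and 40), *Ddb2* (6 and 24) and *Plk3* (10 and 35). Intervals lay below 0 for 6 and above 0 for 2 of the 12, where 20.6% and 20.5% of all genes did. *Btg2*, an antiproliferative gene that p53 induces, had 235 and 453 counts and a ratio of -0.43 (-0.66 to -0.20). *Trp53inp2*, with the most counts (2800 and 4156), was at -0.05 (-0.12 to 0.02), and *Phlda3*, an inhibitor of Akt signalling, had 1137 and 1500 counts and was at 0.12. *Ercc5*, a nuclease of excision repair, was the highest at 0.55 (0.25 to 0.85).

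Of 12 p53 targets in apoptosis, 9 were kept, with a median of 0.01. Of the 9, 2 were at least 1.5-fold higher and 1 lower, where 13.2% and 13.5% of all genes were. *Eda2r*, a receptor of the TNF receptor family that p53 induces, had 241 counts in *FLExDUX4* mice and 151 in WT, more in the shallower total, and a log2 ratio of 1.19 (0.89 to 1.49). *Fas*, the death receptor, had 90 and 59 counts and a ratio of 1.12 (0.64 to 1.62), and was named after its values were seen. Under spike-in scaling *Eda2r* and *Fas* were still above 1.5-fold, at 0.91 and 0.85, where 1048 of the 13396 genes kept were. *Apaf1*, which builds the apoptosome, was lower on 11 and 43 counts, at -1.40 (-2.55 to -0.47). *Ei24* was at 0.48 (0.25 to 0.70) and *Siva1* at -0.22 (-0.47 to 0.02). *Bbc3*, which encodes PUMA, had 32 and 50 counts and a ratio of -0.12 (-0.82 to 0.54), and *Pmaip1*, which encodes NOXA, had none.

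Of 9 targets in metabolism and redox control, 8 were kept, with a median of -0.20, and 3 of 8 intervals lay below 0, where 20.6% of all genes did. *Ddit4*, a stress-induced inhibitor of mTORC1, had 521 and 1083 counts and a ratio of -0.54 (-0.69 to -0.39). *Sesn3*, a sestrin under FoxO control, had 130 and 309 counts and was the lowest at -0.73 (-1.04 to -0.43), unlike *Sesn1* at 0.28. *Tigar*, which diverts glucose to the pentose phosphate pathway, had 1074 and 1728 counts and a ratio of -0.17 (-0.28 to -0.06). The antioxidant enzyme gene *Gpx1* (1037 and 1579 counts) was at -0.09 (-0.20 to 0.02), and *Ccng2*, a relative of *Ccng1*, was at -0.08 (-0.41 to 0.24), the highest of the list among genes with at least 100 counts.

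**Figure D5:**
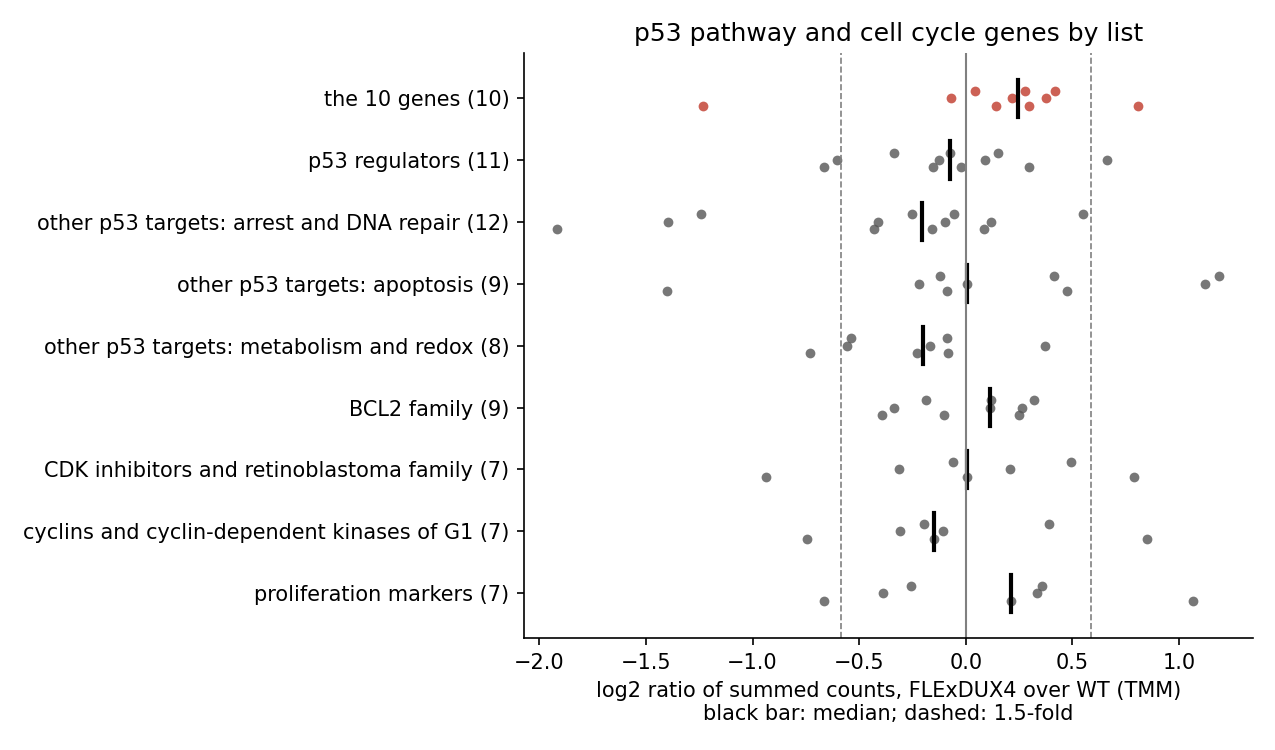
Log2 ratio, *FLExDUX4* over WT under TMM scaling, of each gene kept in the p53 pathway and cell cycle lists, with the number of genes in brackets, black bars at the medians and dashed lines at 1.5-fold. The 10 genes have a median of 0.25 and the other p53 target lists have medians of -0.20, 0.01 and -0.20.

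Of 11 other members of the family of *Bax*, 9 were kept, with a median of 0.12. None was at least 1.5-fold higher or lower, where 13.2% and 13.5% of all genes were. Under spike-in scaling *Bcl2l11* (-0.67) and *Bak1* (-0.61) were at least 1.5-fold lower, where 3174 of the 13396 genes kept were. The median of the family was then -0.16, beside -0.28 for all genes. The survival gene *Mcl1* (1729 and 2080 counts) was at 0.25 (0.16 to 0.34), the mitophagy receptor gene *Bnip3* (2216 and 2645) at 0.26 (0.18 to 0.34), which spike-in scaling turned to -0.03 and -0.01, and *Bcl2l13* at 0.12 (-0.02 to 0.25). The survival gene *Bcl2* was the highest at 0.32 (-0.03 to 0.67), and *Bcl2l11*, which encodes BIM, was the lowest at -0.39 (-0.69 to -0.10).

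The cell cycle inhibitors other than *Cdkn1a* showed no common direction either. Of 8 genes, 7 were kept, with a median of 0.005. Among these 7, 1 was at least 1.5-fold higher and 1 lower, where 13.2% and 13.5% of all genes were. *Cdkn2c*, which encodes p18, had 99 and 82 counts and was at least 1.5-fold higher, at 0.79 (0.35 to 1.23), but not under spike-in scaling, at 0.51. *Rbl1*, of the retinoblastoma family, was at least 1.5-fold lower on 11 and 31 counts, at -0.94 (-2.12 to 0.05). *Cdkn1b*, which encodes p27, was at 0.49 (0.30 to 0.68) on 461 and 469 counts, and the retinoblastoma gene *Rb1* at -0.32 (-0.57 to -0.06). Its relative *Rbl2* was at 0.21 (0.04 to 0.38) and *Cdkn1c*, which encodes p57, at -0.06 (-0.24 to 0.12). Among the cyclins and kinases of G1, *Ccnd1* (194 and 154 counts) was at 0.85 with a lower bound of 0.54 (0.57, just under 1.5-fold, by spike-ins), *Ccnd3* (272 and 297) at 0.39 (0.15 to 0.63), *Cdk6* (44 and 106) at -0.74 (-1.29 to -0.23) and *Ccnd2* (557 and 883) at -0.15 (-0.30 to 0.01). Of 12 proliferation markers, 7 were kept, with a median of 0.21 and 4 ratios above 0. Here too 1 was at least 1.5-fold higher and 1 lower, near the shares of all genes. *Mki67* was at least 1.5-fold higher on 9 and 6 counts (1.06, -0.55 to 2.87). The replication gene *Mcm2* (85 and 95 counts) was at 0.36 (-0.08 to 0.79) and the mitotic kinase gene *Aurka* (90 and 154 counts) at -0.26 (-0.65 to 0.13). *Ccnb1* and *Bub1* had no counts, *Cdk1* had 0 counts in *FLExDUX4* mice and 9 in WT, and *Ccna2* 0 and 8, so that most of these transcripts were near the limit of what this depth could show. *Pcna* was lower, at -0.66 (-1.14 to -0.21) on 58 and 132 counts.

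*Gadd45a*, *Gadd45g* and *Cdkn1a* also respond to loss of the nerve, and 10 denervation-responsive genes were set beside them. Of the 7 kept, 3 were at least 1.5-fold higher, where 13.2% of all genes were, namely *Ankrd1* (236 and 149 counts, 1.18, 0.88 to 1.49), *Myog* (50 and 32 counts, 1.15, 0.49 to 1.85) and *Runx1* (49 and 46 counts, 0.61, with a lower bound just below 0 and an upper of 1.22, and 0.33 under spike-in scaling). *Hdac4*, which represses fibre genes after denervation, was at 0.10 (-0.06 to 0.27). The acetylcholine receptor gene *Chrna1* was at -0.47 (-0.81 to -0.15), and *Chrng*, the fetal receptor gene, had no counts in either genotype and so gave no ratio. Intervals lay above 0 for 2 of the 7 and below 0 for 1, where 20.5% and 20.6% of all genes did.

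The pooled RNA was that of skeletal muscle in both groups. The 10 fibre markers summed to 122865 CPM in *FLExDUX4* mice and 123519 CPM in WT, with ratios from -0.19 for *Myh1* to 0.05 for *Ckm* and *Acta1*, *Myh4* at -0.07, *Tnnt3* at -0.02 and none at 0 counts. Markers of other cell types differed as well. Of the 13396 genes kept, 6685 had a ratio above 0 under TMM and 3376 under spike-in scaling. The 6 adipocyte markers summed to 383.8 CPM and 303.0 CPM, with 5 of 6 higher under TMM and 3 of 6 under spike-in scaling (*Cfd* 0.88, *Adipoq* 0.70, *Fabp4* 0.11, and *Lep* -0.82 on 12 and 31 counts). The 5 erythroid markers summed to 1279 CPM and 1020 CPM, with 5 of 5 higher under TMM and 4 of 5 under spike-in scaling (*Alas2* 0.45, *Hbb-bs* 0.36, *Hba-a2* 0.33, *Hba-a1* 0.25). *Hbb-bt* was at 0.28, and under spike-in scaling at 0.0008, in effect no difference. The globin genes are near-identical copies, between which reads may have been split.

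The 6 endothelial markers came to 163.4 CPM in *FLExDUX4* mice and 188.3 CPM in WT, with 4 of 6 lower (*Cldn5* -1.34 on 17 and 63 counts, *Tek* -0.63, *Kdr* -0.56, *Cdh5* -0.03, *Pecam1* 0.06, *Tie1* 0.36), and the 7 leukocyte markers to 76.6 CPM and 78.6 CPM, with 4 of 7 lower, 3 of them at least 1.5-fold and none at least 1.5-fold higher, where 13.5% and 13.2% of all genes were, and 1 interval below 0 (*Cd14* -0.83, *Adgre1* -0.66, *Cd68* -0.64, *Lyz2* -0.02, *Csf1r* 0.01, *C1qa* 0.08, *Ptprc* 0.43). Under spike-in scaling 1 of the 6 endothelial and 1 of the 7 leukocyte markers had a ratio above 0, where 3376 of the 13396 genes kept did. The 6 fibroblast markers came to 1853 CPM and 1716 CPM, with 6 of 6 higher under TMM and 2 of 6 under spike-in scaling (*Col1a1* 0.53, *Gsn* 0.05, *Dcn* 0.04, *Col3a1* 0.01). The 5 satellite cell markers came to 16.1 CPM and 18.3 CPM, with *Pax7* at -0.82 (-1.44 to -0.25) on 35 and 89 counts, *Vcam1* at -0.42, *Cdh15* at -0.02 and *Myf5* at 0.34, so that 3 of the 4 kept were lower. *Calcr*, not kept, had 9 and 5 counts. No marker of these cell types was at 0 counts in either genotype, and the part of these cells in the ratios of the 10 genes was not tested.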

How the data were processed

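RNA of 3 *FLExDUX4* and 3 WT mice was sequenced with QuantSeq. The authors removed adapters with cutadapt 1.16, mapped to GRCm38 plus spike-in sequences with STAR 2.5.3a, and, per the submitters' processing notes, used featureCounts 1.6.2. The notes also name a human build, whose role they do not give. The values used are raw counts per gene, which the authors deposited as 1 column for each genotype. They are taken as sums over its mice. The libraries behind each sum were not checked. The deposited table also holds 6 columns of single libraries without a matching label, and the authors' own comparison (mean, fold change, error, statistic and p-values). Neither was used.

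Genes were kept with the expression filter of edgeR 4.0.16 (R 4.3.3) and scaled by TMM. Ratios used a pseudocount of 0.5, so that folds are on the log2(count + 0.5) scale, and intervals used scipy 1.17.1 on the bare counts. "Called" was at least 1.5-fold, or an interval without 0. Because the single-library columns were left unused, no test across mice was made, and the planned quasi-likelihood tests, leave-one-out fits and DESeq2 were not run. Scaling by RLE, upper quartile, gene totals and spike-in totals, other filters and a pseudocount of 5 were tried. Ratios were tested on simulated data. Spike-ins were summed as 1 total. Positions of genes were taken from a GENCODE release for GRCm38, and the start equals the deposited one for all 10 genes except *Cdkn1a*.

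The 10 genes and the lists were chosen with earlier results of these data known. Named are all 10, and in each list up to 3 genes with the most counts and the highest and lowest ratio among genes with at least 100 counts. Others were named after their values were seen, because they passed 1.5-fold, had 0 counts or mark a known role.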

Additional observations from a re-analysis of the deposited data

How the results depend on the processing

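The 10 ratios kept their direction under RLE, upper quartile and gene-total scaling, with no filter, with a minimum of 10 counts in each total, and with a pseudocount of 5. For *Gadd45g* these ran from -1.26 to -1.22. Scaling by spike-in totals turned *Mdm2* to -0.061 and moved *Cdkn1a* to -0.35, *Ccng1* to -0.23, *Gadd45b* to 0.022 and *Gadd45g* to -1.51. *Bax* also passed below 0, inside its counting interval. Under it, 0 of the 10 genes were at least 1.5-fold higher, 1 had an interval above 0, 3 had one below 0 and 5 had a ratio above 0. Over all genes it gave 1048 at least 1.5-fold higher, 3174 at least 1.5-fold lower, 1017 intervals above 0 and 6308 below. The cause was not tested. Without a filter, 4121 genes were at least 1.5-fold higher and 4959 lower, of 19792. The minimum of 10 left 1047 of 12007 lower, and tests fewer genes.

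No paired analysis was possible because the columns of single libraries match no label and the counts used are pooled over each genotype and carry no replicate number. Leaving out each mouse, a replicate block, edgeR's quasi-likelihood test and DESeq2 were not run for the same reason. Intervals cover counting error only, which limits *Bax*, *Trp53* and *Gadd45a* most.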
